A study of Macaca mulatta with 56 samples.

Results

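Cadherins and protocadherins are adhesion molecules of the cell surface that hold cells together through repeated calcium-binding ectodomains. The members described here are the rows of the deposited gene table whose Ensembl macaque symbol begins with CDH and a digit or with PCDH. They were 45 of the 17807 identifiers in the table. All 45 were read in amygdala (AMYG), and 36 of them could also be read in hippocampus (HIP), occipital cortex (OC) and prefrontal cortex (PFC). The choice used names and levels only, and no comparison between treatments.

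Brain RNA was sequenced from 14 old female rhesus macaques, with 1 library from each of the 4 regions of each animal, so that 56 libraries fell into 8 groups of 7. All animals were 19.4 to 23.2 years old, ate a Western-style diet with 36% of calories from fat, and had their ovaries and uterus removed about 6 weeks after that diet began. The HT group (7 animals) then carried estradiol capsules, with a serum level of 82.1 pg/mL, and the OvH group (7 animals) carried empty capsules, with a serum level of 6.6 pg/mL. The study ran for 30 months, and the question was how estradiol replacement acts on the ageing brain under such a diet. Diet and surgery were shared by both groups, so neither is compared here.

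Classical cadherins (type I and type II) bind the same or a related cadherin on the neighbouring cell and anchor to actin through catenins. Clustered protocadherins are expressed from arrays of alternative first exons in combinations that differ from neuron to neuron, and neurons use them to tell their own branches from those of others. The non-clustered delta protocadherins mark particular circuits and brain regions, and several are tied to autism or epilepsy. Together these families guide the sorting of axons, the growth of dendrites and the building of synapses.

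The 45 members were 4 type I classical cadherins, 13 type II classical cadherins, 3 other cadherins (CDH13, CDH23 and CDH26), 1 clustered alpha protocadherin (PCDHAC2), 11 clustered beta protocadherins, 1 clustered gamma protocadherin (PCDHGB5), 4 delta-1 protocadherins, 5 delta-2 protocadherins and 3 other protocadherins (PCDH12, PCDH15 and PCDH20). PCDHAC2 and PCDHGB5 share their last exons with the other transcripts of their clusters, and the beta genes are close copies of each other, so their reads could have been split or pooled by the counting. In the gene order of the RefSeq annotation, PCDHAC2 and the first beta genes (PCDHB1 to PCDHB5) follow each other with 0 protein-coding genes between them. CDH8 and CDH11 are also direct neighbours, as are CDH10 and CDH9, CDH9 and CDH6, and PCDH20 and PCDH9.

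The table does not hold the same transcript under every identifier in amygdala and in the other regions. MBP, a myelin gene abundant in all brain tissue, had a mean of 608197 normalized counts in amygdala and 0 in the other 3 regions. The names were therefore read as given in amygdala, and a row was used in the other regions only where its mean log2(value + 1) there lay within 2 of that in amygdala. This held for 36 of the 45 members (80%) and for 75.9% of all identifiers. It left out CDH2, CDH8, CDH9, CDH15, CDH22, PCDH7, PCDH8, PCDH11X and PCDHB13. The members nearest to the limit inside it were PCDHB1, with a mean log2 level 1.71 lower outside amygdala, and CDH24, with one 1.29 higher. PCDH20, PCDHB10, CDH5, PCDH15 and CDH23 also differed by more than 1, so their names outside amygdala are less secure. Just outside the limit were PCDH11X, 2.15 lower, and CDH15, 2.18 higher. A row can also match by accident: moving all rows by 50 places left 33.6% within the limit, which puts the share of wrongly named rows among those that match at an estimated 15.0%, or 5.41 of the 36 members.

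Reads per library, recovered from the table as described under the processing, ranged from 34629533 to 93335855. In 54 of the 56 libraries the expression profile was most like that of the other regions of the same animal. The exceptions were the hippocampal libraries of OvH animals 30 and 43. That of animal 30 was most like the other regions of animal 43, and that of animal 43 most like those of animal 30. In hippocampus, animal 30 had the highest level of several members. Its CDH13 and PCDH10 lay within the range of the 14 prefrontal libraries, and its CDH18 and CDH7 lay above that range. The hippocampal libraries of animals 33 and 40 held choroid plexus transcripts at a summed level of 1329200 and 1467700 normalized counts, against group medians of 3655 and 4284. Results that rest on these libraries were recomputed without them.

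In amygdala, 0 of the 44 members tested differed between HT and OvH, while 6.89% of all 16129 rows tested did, 6.16% higher and 0.732% lower in HT (limma on log2(value + 1), Benjamini-Hochberg adjusted p under 0.05). CDH15, known from muscle, had a mean of 7.25 normalized counts and was too low to test. At an unadjusted p under 0.05 there were 5 members: PCDHAC2, CDH2, CDH8 and PCDHB4 with lower means in HT, and CDH26 with a higher one. Of all 16129 rows tested 3474 were under this value, a larger share than among the members. Differences below 0 were found in 39 of the 44, with a median of -0.30 on the log2 scale, against a median of 0.01 and 48.8% below 0 over all rows tested. The simulated test recovered 44% of 2-fold changes and 8% of 1.5-fold changes in amygdala with 7 animals a group. It changed 100 rows by each fold among 16125 tested, where 1112 rows passed in the data. The adjustment over rows thus differed, and the recovery rates need not hold for these data. Differences of the size seen here could still have been missed.

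**Figure D1:**
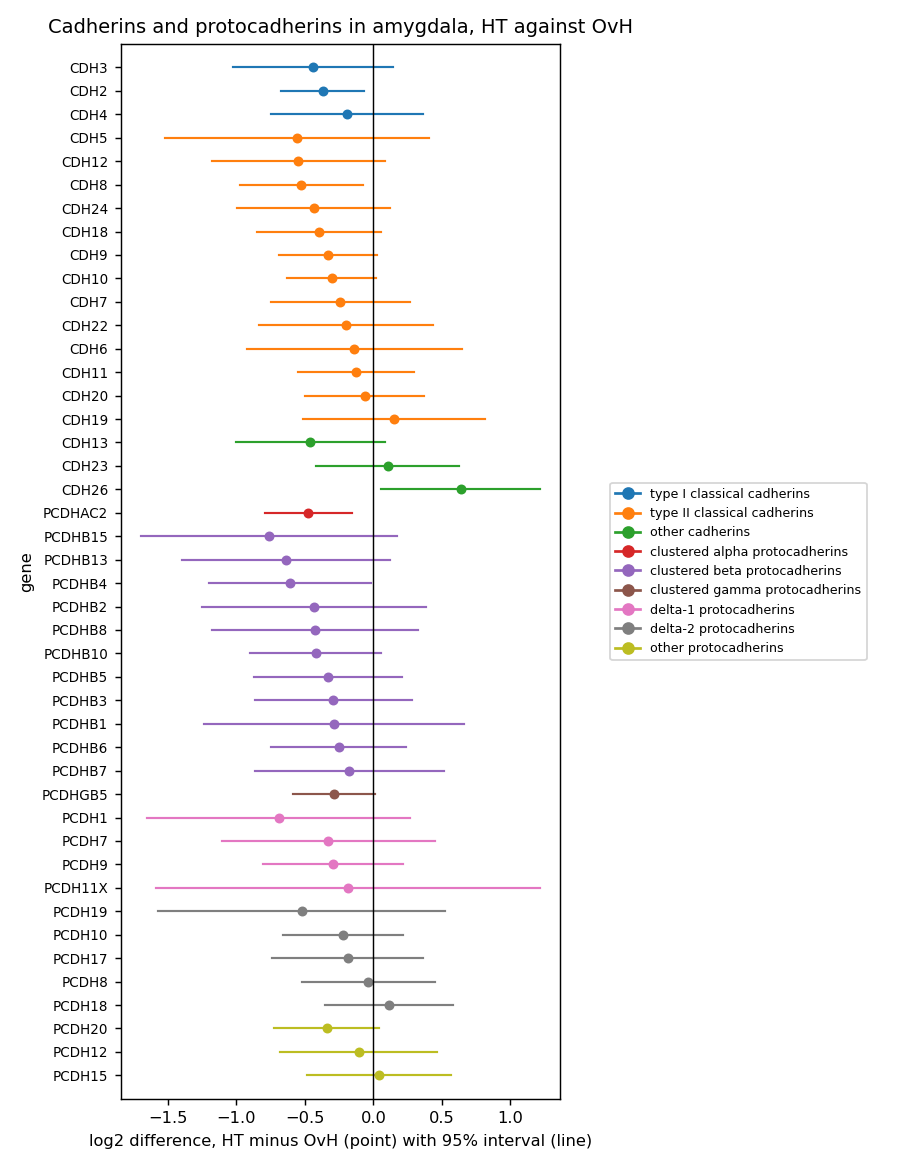
Difference between HT and OvH in amygdala for the 44 tested members, on the log2(value + 1) scale (x axis), ordered by subgroup (y axis). Points are the fitted differences over 7 animals a group and lines are 95% intervals; 39 of the 44 points lie below 0, and no difference passed the adjusted threshold.

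PCDHAC2, a clustered alpha protocadherin transcript of the kind expressed at a steady level in many neurons, had the smallest p. In OvH amygdala it ranged from 4857 to 8200 normalized counts with a median of 6864, and in HT amygdala from 3896 to 6185 with a median of 4310. All 7 HT animals were below the OvH median, and the groups overlapped. The means were 6642 ± 1235 in OvH and 4786 ± 986 in HT (SD, n = 7), a log2 difference of -0.48 (SE 0.15, 95% interval -0.79 to -0.16, adjusted p = 0.0685). It passed the threshold with edgeR (-0.58, adjusted p = 0.0398), with DESeq2 (-0.50, adjusted p = 0.0281) and after scaling libraries to equal totals (-0.69, adjusted p = 0.0216). The same held when animal 30, 31, 39 or 41 was left out.

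Of the classical cadherins, 3 of 3 type I and 12 of 13 type II members had differences below 0, and 0 passed. CDH2 (N-cadherin), the main classical cadherin of neurons and of synaptic junctions, ranged from 4072 to 6794 normalized counts in OvH with a median of 5649, and from 3378.5 to 4881 in HT with a median of 4686. All 7 HT values were below the OvH median, with a log2 difference of -0.37 (SE 0.14, adjusted p = 0.142). CDH8, a type II cadherin known from synapses of particular cortical and striatal circuits, ranged from 2632 to 8907 in OvH with a median of 5850.5, and from 2786 to 4359 in HT with a median of 3650. The lowest OvH value was that of animal 32 and lay below every HT value. The log2 difference was -0.52 (SE 0.21, adjusted p = 0.160), and it passed with DESeq2 (-0.64, adjusted p = 0.0471). A fit over all regions with the animal as a replicate block also called it (adjusted p = 0.00847), but CDH8 is listed at 0 in every library of the other 3 regions, so the error of that fit is not the spread of its amygdala values and the call has no weight. CDH9, which is known for matching mossy fibres to their target cells in hippocampus, had means of 1163 ± 109 in HT and 1516 ± 466 in OvH (SD, n = 7), a log2 difference of -0.33 (SE 0.17, adjusted p = 0.276). CDH11, a type II cadherin of neurons and mesenchyme, gave -0.13 (SE 0.20, adjusted p = 0.773). CDH10, a type II cadherin linked to autism, gave -0.30 (SE 0.15, adjusted p = 0.264), and CDH3 of type I gave -0.44 (SE 0.28, adjusted p = 0.390). CDH5 (VE-cadherin), the junction cadherin of blood vessels, gave -0.56 with a wide error (SE 0.46, adjusted p = 0.525).

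Among the other cadherins, CDH26 was the member with the largest positive difference. It ranged from 121 to 450.2 normalized counts in OvH, with a median of 201, and from 214 to 495 in HT, with a median of 329. The highest OvH value belonged to animal 32 and the other OvH animals lay lower, while all 7 HT animals were above the OvH median. The log2 difference was 0.64 (SE 0.27, adjusted p = 0.188). CDH13 (T-cadherin), which is held in the membrane by a lipid anchor and has no cytoplasmic tail, had means of 5097 ± 2094 in HT and 7066 ± 2833 in OvH (SD, n = 7), a log2 difference of -0.46 (SE 0.26, adjusted p = 0.322). CDH23, a tip-link protein of hair cells in the inner ear, gave 0.10 (SE 0.25, adjusted p = 0.858).

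All 11 clustered beta protocadherins had a difference below 0, with a median of -0.42, and 0 of the 11 passed. PCDHB4 ranged from 426 to 943 normalized counts in OvH with a median of 573, and from 168 to 749.5 in HT with a median of 435. Its lowest value was that of HT animal 40, and 6 of the 7 HT animals were below the OvH median, with a log2 difference of -0.61 (SE 0.28, adjusted p = 0.217). PCDHB10 had means of 255 ± 83.6 in HT and 338 ± 88.8 in OvH (SD, n = 7), a log2 difference of -0.42 (SE 0.23, adjusted p = 0.297). PCDHGB5, the single gamma member, had means of 24602 ± 3717 in HT and 30171 ± 5757 in OvH (SD, n = 7), a log2 difference of -0.29 (SE 0.14, adjusted p = 0.259).

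Of the delta protocadherins, 4 of 4 delta-1 and 4 of 5 delta-2 members had differences below 0, and 0 passed. PCDH1, a delta-1 protocadherin, ranged from 376 to 3912 normalized counts in OvH with a median of 3227, and from 489 to 2819 in HT with a median of 1480.5. The lowest value of each group stood far below the rest of that group: animal 32 in OvH and animal 40 in HT. The log2 difference of -0.69 had an SE of 0.45 (adjusted p = 0.413). PCDH19, an X-linked delta-2 protocadherin whose loss is linked to epilepsy in females, ranged from 226 to 3579 in OvH and from 474 to 2390 in HT, with the same 2 animals lowest in their groups, and gave -0.52 (SE 0.50, adjusted p = 0.589). PCDH9 gave -0.29 (SE 0.24, adjusted p = 0.527), PCDH10 gave -0.22 (SE 0.21, adjusted p = 0.583), and PCDH17, which organises synaptic vesicles in circuits between cortex and basal ganglia, gave -0.19 (SE 0.26, adjusted p = 0.732). PCDH8, an activity-regulated protocadherin, gave -0.04 (SE 0.23, adjusted p = 0.947). Of the other protocadherins, PCDH20 gave -0.34 (SE 0.18, adjusted p = 0.297), PCDH12 of the vascular endothelium gave -0.11 (SE 0.27, adjusted p = 0.866), and PCDH15, the partner of CDH23 in the tip link, gave 0.04 (SE 0.25, adjusted p = 0.946). The sign of PCDH15 turned with edgeR, with equal totals and without animal 32, 33, 34, 37 or 41, and that of PCDH12 turned with the oligodendrocyte covariate.

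Leaving out OvH animal 32 changed the amygdala count from 0 to 7 members, 1 higher and 6 lower in HT, while 14.6% of all rows tested passed. The 7 were CDH26, higher in HT, and CDH8, CDH18, PCDH1, PCDH7, PCDH9 and PCDH19, lower in HT. PCDH1 then gave -1.12 (adjusted p = 0.0169), PCDH19 gave -1.0 (adjusted p = 0.0375) and CDH26 gave 0.82 (adjusted p = 0.0300). Without both animals 32 and 40, a choice made after seeing the data, 5 members passed (12.2% of all rows): CDH26 was higher, and CDH8, PCDH1, PCDH7 and PCDH9 were lower.

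Cell type markers were read beside these differences in amygdala. The median difference of the 10 neuron markers was -0.34, with 9 of 10 below 0 and 0 passing, and their summed level ranged from 367170 to 599930 normalized counts in OvH and from 351620 to 519360 in HT. Of the 10 oligodendrocyte marker rows 9 were above 0 and 2 passed (MBP and a row named MOBP), with a median of 0.43. Their summed level ranged from 351710 to 1241800 in OvH and from 786860 to 1602000 in HT, and none of these markers was at 0. Of 7 endothelial markers 6 were below 0 with 0 passing (median -0.29), and their sum ranged from 4811 to 8583 in OvH and from 4294.5 to 6784 in HT; CDH5 and PCDH12 are vascular too. All 6 oligodendrocyte precursor markers were below 0 with 0 passing (median -0.23), with sums from 9224 to 14006 in OvH and from 7109 to 12746 in HT. Of 7 microglial markers 1 was higher, AIF1 (1.06, SE 0.19, adjusted p = 0.00690), with a median of -0.00 and sums from 15000 to 36428 in OvH and from 17524 to 25794 in HT. Astrocyte, mural and choroid plexus markers had medians of -0.08, 0.39 and -0.31, with 0 passing. With the level of the oligodendrocyte markers as a covariate, the median over the members was -0.22 and over all rows 0.04. In that fit 0 members passed, where 2.3% of all rows did. The scaling mattered as well, since normalized totals ran from 62441387 to 75836033 in HT and from 55909040 to 69097257 in OvH. With libraries scaled to equal totals the median over all rows was -0.20 and that of the members -0.51, and 4 members passed (PCDHAC2, CDH2, CDH8 and PCDHGB5), where 10.1% of all rows did. Over all rows this scaling gave 618 higher and 1016 lower in place of 994 and 118. In bulk tissue, fewer cells of a type and less RNA per cell cannot be told apart, and the part of the markers and of the scaling in the members' differences was otherwise not tested.

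Genes that work with these families were read from lists. Over all rows tested in amygdala, 6.16% passed as higher and 0.732% as lower in HT. Of 7 catenins, which tie classical cadherins to actin, 0 passed in amygdala, and the largest difference was that of CTNNA3 (1.0, SE 0.34, adjusted p = 0.0942). Of 18 other members of the cadherin superfamily, 1 was lower in HT: CLSTN1 (calsyntenin-1), a cargo adaptor of axonal transport (-0.70, SE 0.19, adjusted p = 0.0340). Of 10 cytoplasmic effectors, BRK1, a subunit of the WAVE complex of actin branching, was higher (0.66, SE 0.16, adjusted p = 0.0171), and PTK2B, the kinase PYK2 that clustered protocadherins bind and hold back, was lower (-0.57, SE 0.15, adjusted p = 0.0304). Of 6 proteases that shed cadherin ectodomains and of 10 genes of promoter choice in the protocadherin clusters, 0 passed.

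Outside amygdala, 0 of the members passed between HT and OvH in any region (36 were tested in HIP, 35 in OC and 36 in PFC), and 0% of all rows passed with limma in each of these regions. DESeq2 gave 12 rows in hippocampus and 6 in prefrontal cortex, of which 0 were members, and 0 in occipital cortex. At an unadjusted p under 0.05 there was 1 member in hippocampus and 0 in either cortex. Over all rows there were 335 of 16317 in HIP, 303 of 16138 in OC and 603 of 16286 in PFC. The 1 member was PCDH15, at 0.53 in hippocampus (SE 0.23, 95% interval 0.05 to 1.01, adjusted p = 1.0). The median difference over the members was 0.08 in HIP, -0.03 in OC and -0.06 in PFC. Averaged over the 3 regions, 17 members were above 0 and 19 below it, with a median of -0.02 and 0 passing (0% of all rows). The difference there was 0.27 for PCDH15 (SE 0.15), -0.20 for CDH3 (P-cadherin, SE 0.14) and 0.02 for PCDHAC2 (95% interval -0.21 to 0.24). Among the other classical cadherins it was 0.24 for CDH5 (SE 0.22), 0.04 for CDH11 (SE 0.13), -0.13 for CDH24 (SE 0.15) and -0.08 for CDH4 (SE 0.20), and CDH13 and CDH26 gave -0.18 (SE 0.17) and -0.09 (SE 0.20). The delta protocadherins gave 0.16 for PCDH17 (SE 0.21), 0.06 for PCDH9 (SE 0.14), -0.03 for PCDH19 (SE 0.36), -0.09 for PCDH10 (SE 0.17) and -0.13 for PCDH1 (SE 0.39). Of the clustered members, PCDHB1 gave 0.31 (SE 0.26), PCDHB6 gave -0.16 (SE 0.19) and PCDHGB5 gave -0.05 (SE 0.11). These values lay within the spread between animals, and 0 of them passed.

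The HT difference in amygdala minus that averaged over the other 3 regions was tested for the 36 members readable in all of them, with the animal's own libraries set against each other. It passed for 0 of 36 members, and for 0% of all 13520 rows tested. At an unadjusted p under 0.05 there were 6 members, and 3084 of all 13520 rows, a larger share than among the members. PCDHB4 had the smallest p, with -0.61 in amygdala against 0.00 in the other regions, a difference of -0.61 (SE 0.18, adjusted p = 0.0724). PCDHAC2 gave -0.49 (SE 0.20), PCDH1 gave -0.56 (SE 0.22), PCDH17 gave -0.35 (SE 0.14), PCDHB15 gave -0.72 (SE 0.30) and CDH26 gave 0.73 (SE 0.30). The adjusted p of these 5 lay between 0.140 and 0.164. Of the 36 differences 32 were below 0, with a median of -0.28, against a median of -0.00 over all rows. Without animals 32 and 40 the count was 7 (11.7% of all rows): CDH26 higher, and CDH12, PCDH1, PCDH17, PCDH19, PCDHB1 and PCDHB4 lower. With equal totals 1 member passed, PCDHB4, where 3.74% of all rows did. Some marker lists also had differences below 0 in this contrast: 7 of 7 for endothelium (median -0.46), 5 of 5 for oligodendrocyte precursors (median -0.40) and 9 of 10 for neurons (median -0.40), with 0 passing. Oligodendrocyte markers went the other way, with 7 of 8 above 0 (median 0.21), and microglial markers were split, with 3 above and 3 below 0. The part of the markers in the members' differences was not tested.

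Hippocampus, occipital cortex and prefrontal cortex could be compared within animals, with the libraries paired by their labels. The pairing is in doubt for the hippocampal libraries of animals 30 and 43. Counts of animals below, and exceptions named as animal 30 or 43, keep the labels as given. Between hippocampus and occipital cortex 23 of 36 passed, 17 higher and 6 lower in hippocampus (50.7% of all rows passed, 28.1% higher and 22.6% lower). Between hippocampus and prefrontal cortex 17 passed, 8 higher and 9 lower (43.4% of all rows, 20.9% higher and 22.6% lower). Between the cortices 17 passed, and all 17 were lower in occipital cortex (47.9% of all rows, 19.7% higher and 28.2% lower). With edgeR that last count was 15 lower and 1 higher. The counts summed over both directions for both pairs with prefrontal cortex lay near the shares over all rows. Those sums are no result about the members as a group. Split by direction, all 17 limma calls between the cortices were lower among the members. Over all rows, 4610 of the 7836 calls were lower and 3226 higher. This difference in direction was not tested.

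**Figure D2:**
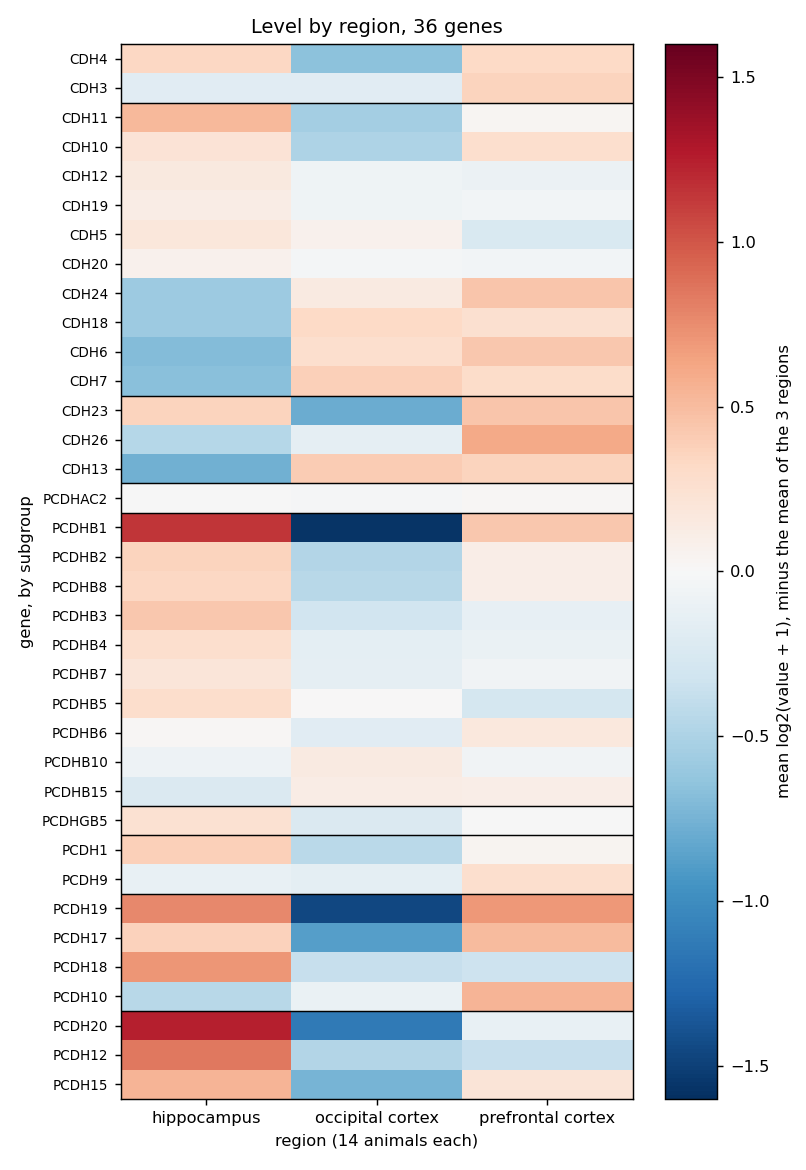
Mean level of the 36 members by region (columns, 14 animals each), as mean log2(value + 1) minus the mean of the 3 regions, with rows grouped by subgroup between black lines. Red cells are above and blue cells below the mean of the 3 regions; the deepest blue cells in the occipital column are PCDHB1, PCDH19 and PCDH20.

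Delta-2 protocadherins gave some of the largest regional differences. PCDH19 ranged from 418 to 3436 normalized counts in hippocampus with a median of 1506, from 132 to 681 in occipital cortex with a median of 277, and from 239 to 2668 in prefrontal cortex with a median of 1817.5. All 14 animals had more in hippocampus than in occipital cortex, and 13 of 14 had more in prefrontal than in occipital cortex, with animal 32 the exception. The log2 difference was 2.23 between hippocampus and occipital cortex (SE 0.25, adjusted p = 9.4e-09) and -2.16 between occipital and prefrontal cortex (SE 0.25, adjusted p = 4.2e-08). Hippocampus and prefrontal cortex were not told apart (0.07, 95% interval -0.44 to 0.59).

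PCDH17 had the same order, with medians of 1286 in HIP, 549.8 in OC and 1656 in PFC. It was lower in occipital cortex in 14 of 14 animals against either region, with log2 differences of 1.26 for hippocampus minus occipital cortex (SE 0.19, adjusted p = 2.4e-06) and -1.39 for occipital minus prefrontal cortex (SE 0.19, adjusted p = 8.3e-07). PCDH10, a delta-2 protocadherin that takes part in the removal of synapses, was highest in prefrontal cortex, from 2764.5 to 5563 with a median of 4532. Its medians were 2051 in hippocampus and 2973 in occipital cortex. Prefrontal cortex had more PCDH10 than hippocampus in 14 of 14 animals (-0.98 for hippocampus minus prefrontal cortex, SE 0.13, adjusted p = 5.5e-07), and animal 30 was the highest of the hippocampal libraries at 5300. Occipital minus prefrontal cortex gave -0.65 (SE 0.13, adjusted p = 0.000161), and hippocampus minus occipital cortex gave -0.33 (SE 0.13, adjusted p = 0.0349), a call lost with no replicate block (adjusted p = 0.0988). PCDH18 was instead highest in hippocampus, with a mean of 742 ± 259 against 338 ± 67.4 in occipital and 357 ± 98.5 in prefrontal cortex (SD, n = 14). It was higher there by 1.08 (SE 0.17) and 1.04 (SE 0.17), with adjusted p of 2.2e-06 and 7.6e-06.

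PCDH20, which has no settled place among the delta protocadherins, followed a graded order. It ranged from 603 to 3787 normalized counts in hippocampus with a median of 2461, from 530.0 to 1228 in prefrontal cortex with a median of 851, and from 241 to 672 in occipital cortex with a median of 452. All 3 pairs passed: hippocampus was above occipital cortex by 2.37 (SE 0.20, adjusted p = 2.7e-11) and above prefrontal cortex by 1.36 (SE 0.20, adjusted p = 3.0e-06), and occipital minus prefrontal cortex gave -1.01 (SE 0.20, adjusted p = 0.000144). Animal 43 was the single one with less PCDH20 in hippocampus than in prefrontal cortex. Along the chromosome PCDH17, PCDH20 and PCDH9 follow each other with 2 and 0 protein-coding genes between them, and PCDH9 differed: its means were 6651 ± 2468 in HIP, 6335 ± 1629 in OC and 8438 ± 1826 in PFC (SD, n = 14). It was lower in hippocampus (-0.38, SE 0.14, adjusted p = 0.0285) and in occipital cortex (-0.42, SE 0.14, adjusted p = 0.0153) than in prefrontal cortex. The first of these was lost without the hippocampal libraries of 33 and 40 (adjusted p = 0.0669). PCDH1, the other readable delta-1 member, was higher in hippocampus than in occipital cortex by 0.81 (SE 0.19, adjusted p = 0.000644). Its difference of -0.47 for occipital minus prefrontal cortex (SE 0.19, adjusted p = 0.0430) was lost with edgeR (adjusted p = 0.0624), with no filter on low values (0.0588) and with no replicate block (0.261).

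**Figure D3:**
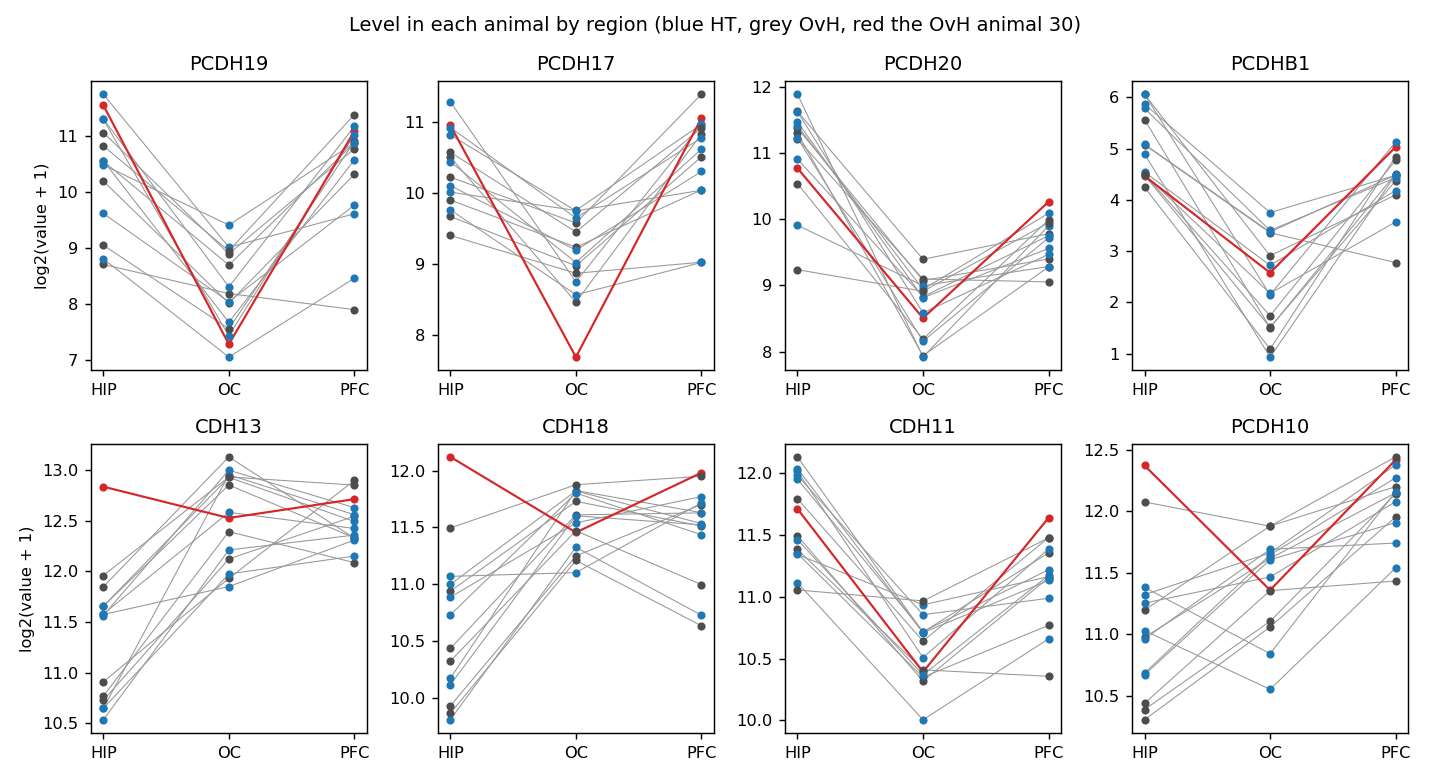
Level of 8 members in each of the 14 animals as log2(value + 1) (y axis) in hippocampus (HIP), occipital cortex (OC) and prefrontal cortex (PFC), with lines joining the regions of 1 animal. PCDH19, PCDH17, PCDH20, PCDHB1 and CDH11 dip in occipital cortex; the red line, OvH animal 30, stands above the other hippocampal points in CDH13, CDH18 and PCDH10.

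PCDH15 and CDH23, which pair in the tip link of hair cells, were both low in occipital cortex. PCDH15 had a mean of 240 ± 74.0 normalized counts in HIP, 95.3 ± 23.0 in OC and 186 ± 51.8 in PFC (SD, n = 14), and occipital cortex was the lower in 14 of 14 animals in both pairs. The log2 differences were 1.30 for hippocampus minus occipital cortex (SE 0.15, adjusted p = 8.3e-09) and -0.95 for occipital minus prefrontal cortex (SE 0.15, adjusted p = 4.0e-06). Hippocampus minus prefrontal cortex gave 0.35 for PCDH15 (SE 0.15, adjusted p = 0.0534), which passed with edgeR (adjusted p = 0.0487), with a pseudocount of 10 (0.0480) and without the hippocampal libraries of 33 and 40 (0.0407). CDH23 had means of 78.9 ± 28.5, 34.7 ± 12.3 and 81.5 ± 18.9 in the same order (SD, n = 14). It was above occipital cortex by 1.15 in hippocampus (SE 0.16, adjusted p = 4.3e-07), and occipital minus prefrontal cortex gave -1.24 (SE 0.16, adjusted p = 2.2e-07).

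Type II classical cadherins split into groups with opposite orders. CDH18, CDH7, CDH6 and CDH24 were lower in hippocampus than in either cortex, and CDH11 was higher. CDH18 had a mean of 1772 ± 961 normalized counts in hippocampus, 3026 ± 516 in occipital and 2959 ± 744 in prefrontal cortex (SD, n = 14). Hippocampus minus occipital cortex gave -0.91 (SE 0.13, adjusted p = 1.0e-06), and hippocampus minus prefrontal cortex gave -0.85 (SE 0.13, adjusted p = 6.5e-06). The only animal with more CDH18 in hippocampus was animal 30, in both pairs, and the same was true of CDH7. CDH7 gave -1.05 (SE 0.20) and -0.97 (SE 0.20), and CDH6 gave -0.97 (SE 0.20) and -1.12 (SE 0.20), against occipital and prefrontal cortex. CDH24 was lower in hippocampus than in prefrontal cortex in 14 of 14 animals (-1.03, SE 0.15, adjusted p = 1.8e-06). CDH11 ranged from 2126 to 4479.9 in hippocampus and from 1027 to 1999 in occipital cortex, so these did not overlap, and the difference was 1.07 (SE 0.10, adjusted p = 2.0e-10). CDH11 was also above prefrontal cortex, by 0.49 (SE 0.10, adjusted p = 0.000210). Occipital minus prefrontal cortex gave -0.58 for CDH11 (SE 0.10, adjusted p = 2.4e-05). CDH10 was low in occipital cortex, with 0.70 for hippocampus minus occipital cortex (SE 0.12) and -0.76 for occipital minus prefrontal cortex (SE 0.12), the latter in 14 of 14 animals. CDH12, CDH19, CDH20 and CDH5 passed in none of the 3 pairs.

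Among the other cadherins, CDH13 was lowest in hippocampus. It ranged from 1481 to 7307 normalized counts in hippocampus with a median of 3035, from 3687 to 8959 in occipital cortex with a median of 6012, and from 4344 to 7629 in prefrontal cortex with a median of 5624. Hippocampus was the lowest region in 13 of 14 animals, and animal 30, with the value of 7307, was the exception. The log2 difference was -1.18 against occipital cortex (SE 0.15, adjusted p = 5.2e-08) and -1.13 against prefrontal cortex (SE 0.15, adjusted p = 3.2e-07), and the cortices were not told apart (0.05, 95% interval -0.25 to 0.35). CDH26 was highest in prefrontal cortex, with a mean of 515 ± 209.7 against 249 ± 121 in hippocampus and 291 ± 77.6 in occipital cortex (SD, n = 14). Relative to prefrontal cortex the log2 difference was -1.07 in hippocampus (SE 0.18) and -0.75 in occipital cortex (SE 0.18). Of the type I cadherins, CDH4 (R-cadherin) was low in occipital cortex, with a mean of 297 ± 99.1 against 576 ± 155 in hippocampus and 573 ± 170 in prefrontal cortex (SD, n = 14). The log2 differences of CDH4 were 0.99 for hippocampus minus occipital cortex (SE 0.13, adjusted p = 1.7e-07) and -0.97 for occipital minus prefrontal cortex (SE 0.13, adjusted p = 4.7e-07). CDH3 was highest in prefrontal cortex, at 364 ± 45.1 against 273 ± 137 in hippocampus and 255 ± 56.8 in occipital cortex (SD, n = 14). Relative to prefrontal cortex CDH3 gave -0.53 in both hippocampus (SE 0.15, adjusted p = 0.00352) and occipital cortex (SE 0.15, adjusted p = 0.00315).

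PCDHB1, the first gene of the beta array, had low absolute values. Its mean of 5.19 in occipital cortex was under the minimum of 10, so it entered the regional test through the regions where it is high. It ranged from 18.0 to 65.9 normalized counts in hippocampus with a median of 30.7, from 0.907 to 12.5 in occipital cortex with a median of 4.24, and from 5.85 to 34.0 in prefrontal cortex with a median of 21.3. Hippocampus and occipital cortex did not overlap, with a difference of 2.71 (SE 0.27, adjusted p = 7.0e-10), and occipital minus prefrontal cortex gave -2.0 (SE 0.27, adjusted p = 5.1e-07). The difference from hippocampus to prefrontal cortex (0.71, SE 0.27, adjusted p = 0.0335) was lost with equal totals and without animals 32 and 40 (adjusted p = 0.0558 and 0.0963). At levels this low the log2(value + 1) scale understates the change.

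The other beta protocadherins had smaller differences. Of the 10 that were readable, PCDHB1 included, 5 were higher in hippocampus than in occipital cortex (PCDHB1, PCDHB2, PCDHB3, PCDHB4 and PCDHB8). Against prefrontal cortex 4 were higher (PCDHB1, PCDHB3, PCDHB4 and PCDHB5), and 0 were lower in either pair. Over all rows 28.1% were higher and 22.6% lower in the first pair, and 20.9% higher and 22.6% lower in the second. Whether the beta members differ from all rows in this was not tested. PCDHB3 was higher in hippocampus than in occipital cortex in 14 of 14 animals (0.73, SE 0.11, adjusted p = 1.9e-06). It was also higher in hippocampus than in prefrontal cortex (0.56, SE 0.11, adjusted p = 0.000160), as was PCDHB5 (0.55, SE 0.13, adjusted p = 0.000793). PCDHB8 was higher in hippocampus than in occipital cortex by 0.78 (SE 0.20, adjusted p = 0.00188). Occipital minus prefrontal cortex gave -0.58 for PCDHB2 (SE 0.18, adjusted p = 0.00965) and -0.55 for PCDHB8 (SE 0.20, adjusted p = 0.0257), and the latter was lost with edgeR (adjusted p = 0.0506) and with no replicate block (0.0750). Hippocampus minus occipital cortex gave -0.23 for PCDHB10 and -0.35 for PCDHB15, which did not pass with limma and passed with edgeR. PCDHB4 was higher in hippocampus by 0.43 against occipital cortex (SE 0.13, adjusted p = 0.00499) and by 0.39 against prefrontal cortex (SE 0.13, adjusted p = 0.0146). Both of these calls were lost with no replicate block, and the second also with equal totals and without animals 32 and 40. PCDHAC2 passed in none of the pairs: its means were 8062 ± 2006 in HIP, 8001 ± 2002 in OC and 8002 ± 1148 in PFC (SD, n = 14), and the intervals of the 3 differences reached from -0.27 to 0.25. PCDHGB5 was higher in hippocampus than in occipital cortex by 0.48 (SE 0.12, adjusted p = 0.000899).

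PCDH12, a vascular protocadherin, was highest in hippocampus, with a mean of 123 ± 49.9 normalized counts against 47.6 ± 16.5 in occipital and 52.7 ± 23.4 in prefrontal cortex (SD, n = 14). The differences were 1.31 (SE 0.17, adjusted p = 1.7e-07) and 1.21 (SE 0.17, adjusted p = 1.6e-06). CDH5, the vascular cadherin, did not pass in these pairs (0.12, SE 0.20, and 0.43, SE 0.20). Occipital minus prefrontal cortex gave 0.31 for CDH5 (SE 0.20, adjusted p = 0.211).

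Markers of cell types differed between the regions too. All 6 readable microglial markers were higher in hippocampus, with median differences of 1.11 against occipital and 0.81 against prefrontal cortex, and so were 4 of 4 and 2 of 4 choroid plexus markers. Of 8 oligodendrocyte markers 6 were higher in hippocampus than in prefrontal cortex and 0 than in occipital cortex. Of 10 neuron markers 7 were lower and 1 was higher in hippocampus than in occipital cortex. Of 5 oligodendrocyte precursor markers 3 were higher in hippocampus in either pair. Between the cortices, 3 of 10 neuron, 3 of 8 oligodendrocyte and 4 of 7 endothelial markers were higher in occipital cortex, with 0 lower. There 3 of 6 microglial markers were lower and 0 higher, and precursor and astrocyte markers went both ways. The part of the markers in the members' differences was not tested. Without the hippocampal libraries of 33 and 40, 17 members were higher and 6 lower than in occipital cortex (49.1% of all rows passed). Without those of 30 and 43, 19 were higher and 8 lower (56.3% of all rows).

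Partner genes also differed between the regions. Of 16 other members of the cadherin superfamily, 12 were lower and 1 was higher in occipital than in prefrontal cortex (28.2% and 19.7% of all rows). FAT2 (-2.75, SE 0.41) and DCHS2 (-2.15, SE 0.22), giant cadherins of the FAT and Dachsous type, had the largest differences, and RET, a growth factor receptor with cadherin repeats, was the one higher (1.0, SE 0.18). Of 8 cytoplasmic effectors, 6 were higher and 0 lower in hippocampus than in occipital cortex (28.1% and 22.6% of all rows). ABI1 of the WAVE complex led them (1.38, SE 0.12, adjusted p = 4.0e-11). Of 7 catenins, JUP (plakoglobin) was higher in hippocampus than in either cortex, while CTNND2, the neuronal delta-catenin, was lowest in occipital cortex (-0.78 against prefrontal cortex, SE 0.09, adjusted p = 2.2e-08).

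Amygdala is set beside the other regions as a description only, since the naming of rows limits that comparison to members within 2 of each other. The mean log2 level over the other 3 regions minus that in amygdala was -1.27 for PCDH20, -1.03 for PCDH15, -1.02 for CDH23, -0.78 for PCDH19 and -0.61 for PCDH17. PCDH20 had a mean of 2205 ± 610 normalized counts in amygdala, close to that of hippocampus, and PCDH15 had 336 ± 104 (SD, n = 14). The same difference was 1.29 for CDH24, 1.22 for PCDHB10 and 1.06 for CDH5, which were higher outside amygdala. Among the members readable in amygdala alone, CDH8 had a mean of 4557 ± 1735, PCDH8 2718 ± 1039, CDH22 1373 ± 487 and CDH9 1339.5 ± 373 (SD, n = 14).

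Of the delta protocadherins, PCDH1, PCDH19 and PCDH11X varied most between animals. In amygdala the SD of their log2 level over the 14 animals was 1.02, 1.07 and 1.40, while that of the other delta members lay between 0.40 (PCDH18) and 0.78 (PCDH7) and the value over all rows was 0.43. PCDH1 stood at 376 normalized counts in the amygdala of OvH animal 32 and at 489 in that of HT animal 40, against a median of 2012 over all 14. In prefrontal cortex the same animals had 890.3 and 873, against a median of 4258, and in hippocampus 1420 and 1545, against 4865. PCDH19 was at 226 and 474 in amygdala and at 239 and 352 in prefrontal cortex in these animals, against medians of 1634 and 1817.5. PCDH11X, X-linked like PCDH19, was at 108 and 265 in amygdala against a median of 1376. Relative to the median of the other 12 animals, the log2 level of PCDH1 in amygdala was -2.62 in animal 32 and -2.24 in animal 40.

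**Figure D4:**
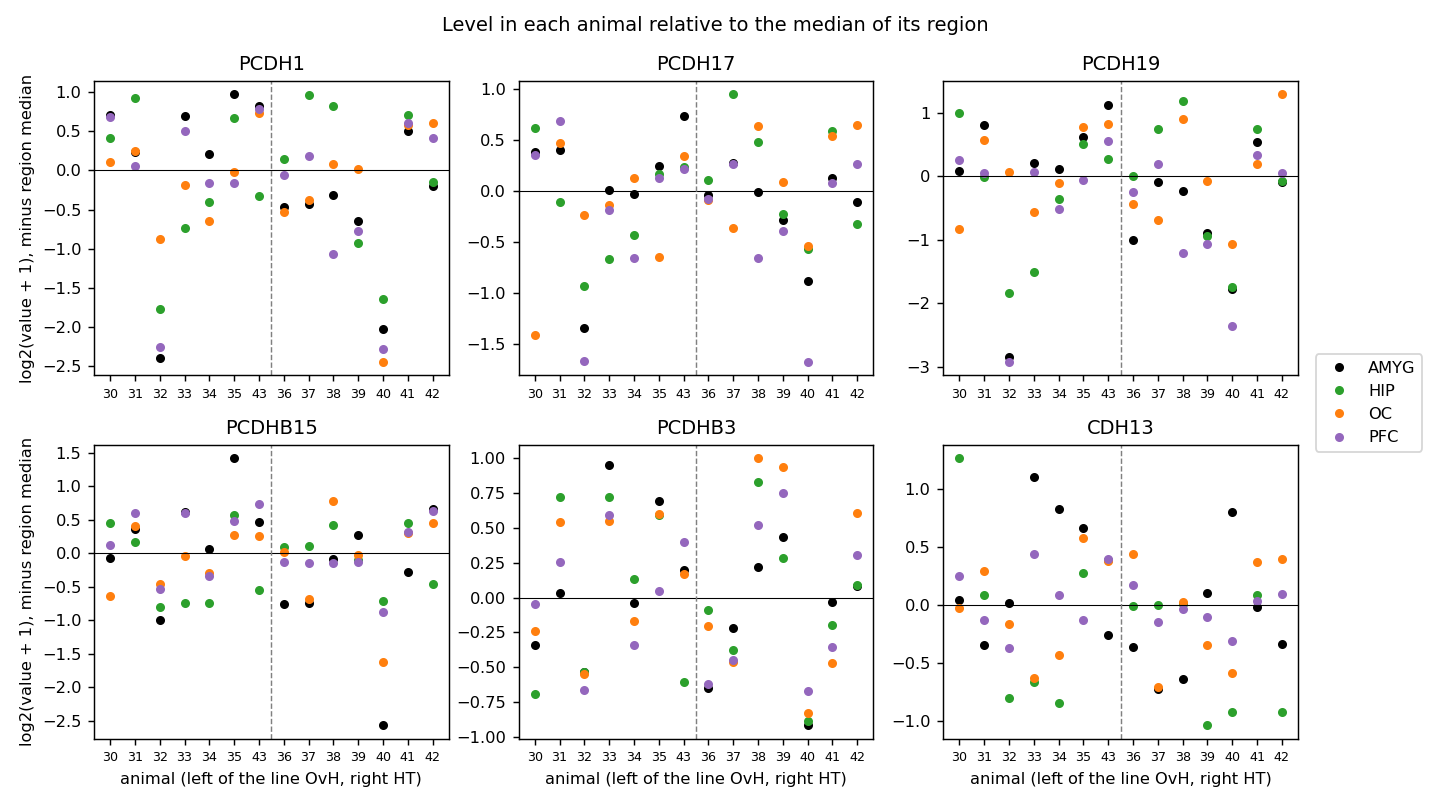
Level of 6 members in each animal as log2(value + 1) minus the median of its region (y axis), by animal (x axis, OvH left and HT right of the dashed line), with 1 colour for each region. In PCDH1, PCDH17 and PCDH19 animals 32 and 40 lie low in amygdala, hippocampus and prefrontal cortex, and in CDH13 animal 40 lies high in amygdala.

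Animal 32 was among the 2 lowest of the 14 animals for 22 of the 44 members in amygdala (50%, against 27.2% of all rows) and for 23 of 36 in prefrontal cortex (63.9%, against 28.5%). Animal 40 was among them for 18 members in amygdala (40.9%, against 18.45%) and 26 in prefrontal cortex (72.2%, against 24.6%). Both together were the 2 lowest for 21 members in prefrontal cortex (58.3%, against 18.05%) and for 2 of 35 in occipital cortex (5.71%, against 2.55%). These 2 animals stand in different treatment groups. Their neuron marker sums in amygdala, 564760 and 506330, lay inside the ranges of their groups, while the oligodendrocyte sum of animal 32, 1241800, was the highest of the OvH group. In prefrontal cortex each was the lowest of its group in the sums of oligodendrocyte precursor markers (10307 and 12322) and astrocyte markers (102450 and 118270). Their neuron, oligodendrocyte, microglial and endothelial sums there lay inside the ranges of their groups. The part of the markers in the low levels of the members was not tested.

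Levels in amygdala were also set against those in the other regions across animals. Over the 14 animals, the correlation of log2 levels in amygdala with the mean of the other 3 regions was computed for 36 members, with a median Pearson r of 0.41. By r, 9 passed a permutation test with Benjamini-Hochberg adjustment over the 36: PCDH1, PCDH10, PCDH17, PCDH19, PCDHB2, PCDHB3, PCDHB4, PCDHB8 and PCDHB15. The same correlation was not computed for all rows. Whether the count and the median are particular to these members was therefore not tested. PCDHB3 had r = 0.83 (adjusted permutation p = 0.00468) and Spearman's rho = 0.85 (adjusted permutation p = 0.00864), and r = 0.77 without the 2 animals farthest from the median. PCDH19 had r = 0.85 (adjusted permutation p = 0.00720) and rho = 0.68 (adjusted permutation p = 0.111), and r = 0.60 without animals 32 and 40. PCDH1 had r = 0.86 (adjusted permutation p = 0.00855) and rho = 0.69 (adjusted permutation p = 0.111), and PCDH17 had r = 0.83 (adjusted permutation p = 0.00855) and rho = 0.64 (adjusted permutation p = 0.111). Without animals 32 and 40 they fell to r = 0.47 and r = 0.42, so these relations rest largely on those 2 animals. Without the 2 animals farthest from the median, r was 0.00 for PCDHB8, -0.01 for PCDHB2, 0.41 for PCDH10, 0.47 for PCDHB15 and 0.52 for PCDHB4, so that 3 of the 9 kept an r of at least 0.5 (PCDHB3, PCDH19 and PCDHB4). By rho, PCDHB3 alone passed. PCDHAC2 and CDH13 had r below 0 (-0.31 and -0.34), and neither passed.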

How the data were processed

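RNA from 4 brain regions of 14 macaques was sequenced, and 1 table of gene values was deposited by the authors. The submitters' processing notes name FastQC 0.1.1.2, Trimmomatic, STAR 2.7.3a, edgeR 3.28.0 and the Mmul 10 build; the gene counting and its strand setting are not given in the sources used here. The deposited values are signal, gene counts divided by upper-quartile factors, with the upper quartile of every library at 2819. Dividing by the value of 1 read gave whole reads for 100% of values (tolerance 0.01 reads). The median library held 59875932 reads.

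The primary test was limma 3.58.1 (R 4.3.3) on log2(value + 1), over rows with a mean of at least 10, with Benjamini-Hochberg adjustment over all rows tested and a threshold of 0.05. HT and OvH were compared within each region. The HT effect was averaged over HIP, OC and PFC, or contrasted with amygdala, using 1 mean or difference per animal. Regions were compared over 42 libraries with the animal as a block. By their labels, same-numbered libraries come from 1 animal, and their deviations from group means correlated at 0.287 to 0.494 on average for the 6 pairs of regions. Alternatives were edgeR 4.0.16 and DESeq2 1.42.0 on recovered reads, the replicate block, equal totals, other filters, a pseudocount of 10 and libraries left out. The code was tested on simulated data.

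Named were the members past the threshold in a treatment comparison, the 2 with the smallest p in each subgroup (amygdala and the mean over 3 regions), the 3 with the largest differences past it in each subgroup (regions), and members chosen for known roles. CDH12, CDH15, CDH18, CDH19, CDH20, CDH22, PCDH7, PCDH8, PCDH11X, PCDHB13 and PCDHB15 fall outside this rule and were chosen after their values were seen. Members and lists were chosen with earlier results of these data known. Symbols came from a name table that matched 15123 of 17807 identifiers. The RefSeq annotation is of another build and served for gene order only. No sequences are shown.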

Additional observations from a re-analysis of the deposited data

Results flagged for a closer look

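Within groups of 7 animals, 246 combinations of a named member, a region and a treatment were screened for a highest or lowest animal whose gap to the next exceeded Dixon's 95% critical value, as a share of the group's range. 19 stood apart (7.72%). The rate of 1 in 20 groups under Dixon's value holds for normal values in independent groups. Values before the log2 scale were used and the groups share libraries, so the count cannot be weighed against that rate.

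Of these, 4 lay in the hippocampal library of OvH animal 30: CDH10 at 4084 normalized counts (group median 1814), CDH13 at 7307 (3221), CDH7 at 614.7 (151) and PCDH9 at 13560 (5598). Other high hippocampal values were CDH3 at 643.6 in OvH animal 33 (241), PCDHB8 at 286.4 in OvH animal 35 (147) and PCDHB10 at 1109 in HT animal 37 (561.5).

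In amygdala, OvH animal 32 was low in PCDH9 at 2117 (6638) and high in CDH26 at 450.2 (201). HT animal 40 was high in CDH13 at 9369 (4282), HT animal 41 in CDH3 at 253.6 (139), HT animal 42 in CDH5 at 312.5 (78.4) and OvH animal 43 in PCDH10 at 4841 (2368).

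In prefrontal cortex, OvH animal 32 was low in PCDH9 at 4332 (9162), and HT animal 40 was low in PCDH18 at 222 (361) and high in CDH26 at 885 (475). OvH animal 43 was high in CDH5 at 277.9 (178), and OvH animal 33 in PCDH12 at 82.58 (40.3). In occipital cortex, OvH animal 43 was high in CDH23 at 66.21 (32.4).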

How the results depend on the processing

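The count of members that passed between HT and OvH in amygdala was 0 (6.89% of all genes tested passed), and became 1 with edgeR (6.31%), 2 with DESeq2 (10.7%), 4 with equal totals (10.1%) and 5 without animals 32 and 40 (12.2%); leaving out 1 animal at a time gave 0 to 7 (3.40% to 14.6%). The replicate block gave 1 (8.57%), CDH8, which is listed at 0 in the other 3 regions, so that call has no weight. For the HT effect in amygdala minus the other regions, 0 became 1 with equal totals (3.74% of all genes tested) and 7 without animals 32 and 40 (11.7%). In hippocampus, both cortices and their mean, the count stayed at 0 in every alternative run, and for the single regions these held the replicate block. Regional counts stayed within 1.5 times, with 16, 21 and 14 in place of 17, 23 and 17 (HIP against PFC, HIP against OC, OC against PFC) with no replicate block, where 35.8%, 44.2% and 40.7% of all genes tested passed. That fit lost the calls of PCDH10 for HIP minus OC (adjusted p = 0.0988), of PCDH1 and PCDHB8 for OC minus PFC (0.261 and 0.0750), of PCDHB6 for OC minus PFC and of PCDHB4 for HIP minus OC and HIP minus PFC. Of these edgeR lost PCDH1 and PCDHB8 for OC minus PFC (0.0624 and 0.0506). A level rule within 1 left 29 members, without CDH5, CDH23, CDH24, PCDH15, PCDH20, PCDHB1 and PCDHB10. Of the 29, 6 were higher and 8 lower for HIP against PFC (43.4% of all genes tested passed). For HIP against OC 13 were higher and 5 lower (50.7%), and for OC against PFC 0 were higher and 13 lower (47.9%).

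Signs that turned, none of them past the threshold, were PCDH15 in amygdala (0.0409; -0.0245 with edgeR, -0.171 with equal totals, and -0.0962 to 0.191 when 1 animal was left out), PCDH12 in amygdala (0.0685 with the oligodendrocyte covariate), and in the mean over 3 regions PCDH10 (0.0093), CDH11 (-0.0153), PCDH19 (0.0213) and CDH26 (0.0093) without the HIP libraries of 30 and 43, and PCDHGB5 (0.0311) without animals 32 and 40. Between regions they were PCDHAC2 for HIP minus PFC (0.0071 without the HIP libraries of 33 and 40), for HIP minus OC (-0.0314 with edgeR, -0.0248 with equal totals) and for OC minus PFC (0.0171 with edgeR), PCDH19 for HIP minus PFC (-0.0099 without animals 32 and 40), PCDH9 for HIP minus OC (-0.0116 with edgeR, -0.0028 with equal totals, -0.0724 without the HIP libraries of 30 and 43) and CDH5 for HIP minus OC (-0.0298 without those of 33 and 40). The cause was not tested. With equal totals HIP against PFC gave 2676 higher and 4429 lower rows in place of 3412 and 3693. Depth was lowest, among members read in a region, for PCDHB1 in occipital and prefrontal cortex (means of 5.64 and 22.2 recovered reads) and for CDH15 (7), PCDHB7 (28.8) and PCDHB13 (30.5) in amygdala.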
